A study of Homo sapiens with 12 samples.

Results

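The RNAs crosslinked to FTO in HEK293T cells are described here from the authors' list of FTO CLIP clusters. All clusters of the list were taken and reduced to distinct coordinates and gene, which gave 10411 pairs of a cluster and a gene at 9579 distinct positions, of 17252 regions in the 3 lists of the series. HEK293T cells descend from human embryonic kidney and express the large T antigen of SV40. The FTO CLIP sample was 1 library of cells that overexpressed FTO, recovered with anti-Flag beads after ultraviolet crosslinking and RNase T1, an enzyme that cuts RNA after guanosine. The other groups are TRMT10A CLIP of cells that overexpressed TRMT10A (3 libraries, 5650 distinct sites in a pooled list), and the m6A pulldown and the input of cells given TRMT10A siRNA or control siRNA (2 samples in each of 4 groups, 2023 differential peaks). No library of cells without tagged FTO was used here, so crosslinking to FTO and recovery without it cannot be told apart. Overexpressed FTO can also reach RNAs that the cell's own amount would not.

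FTO is an iron- and 2-oxoglutarate-dependent dioxygenase that removes methyl groups from RNA. Its known substrates include N6-methyladenosine (m6A) inside mRNA, the dimethylated adenosine beside the mRNA cap, and m6A in spliceosomal RNAs. CLIP freezes contacts between a protein and RNA with ultraviolet light, and the sequenced fragments carry base changes at crosslinked positions, which the authors' table counts as conversion events of each cluster. With 1 library there is no spread between replicates and no test, and the 95% Wilson intervals given cover counting error only. Read depth and transcript levels were not in the lists used here, so no count was adjusted for how abundant an RNA is.

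Mature microRNAs show most clearly where the clusters lay, because most clusters there were short and many started at nearly the same base. These are mature sequences from RefSeq (GRCh38.p14) of the microRNAs with the highest clusters among those that touched a mature sequence. The seed (bases 2 to 8, which pair with target mRNAs) is in capitals. The first 6 share 1 seed, that of the let-7 family.
hsa-let-7i-5p: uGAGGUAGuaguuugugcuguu
hsa-let-7c-5p: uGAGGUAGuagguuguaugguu
hsa-let-7b-5p: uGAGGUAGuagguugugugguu
hsa-let-7f-5p: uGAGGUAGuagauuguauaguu
hsa-let-7a-5p: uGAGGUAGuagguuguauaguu
hsa-let-7g-5p: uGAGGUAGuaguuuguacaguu
hsa-miR-148a-3p: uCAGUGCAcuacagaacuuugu
hsa-miR-30a-5p: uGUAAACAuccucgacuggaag
hsa-miR-21-5p: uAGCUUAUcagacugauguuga
hsa-miR-26a-5p: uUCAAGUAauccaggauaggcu
hsa-miR-92a-3p: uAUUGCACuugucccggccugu

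There were 89 clusters at microRNA genes, and 66 of them touched a mature microRNA of the sequence table. On these 66, the first base of the cluster was at a median of base 12 and the last at base 24. Of the 66, 55 ended past the end of the mature RNA. Only 14 of the 66 touched the seed or lay before it, 52 started at base 9 or later, and 39 started at bases 12 to 14. The coordinates were taken as counted from 1, which the file does not state. If the starts count from 0, a cluster on the plus strand begins 1 base further along and one on the minus strand keeps its first base. The 5p arm held 41 clusters with 2394 events and the 3p arm 22 with 454.

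The let-7 family, which represses growth-promoting mRNAs in differentiated cells, accounted for 55.3% of the events at microRNA genes (1820 of 3289). That total leaves out MIR7641-2, whose highest cluster had 473 events and which was counted in the class of other RNAs. The class of other RNAs held 28 clusters with 3417 events. All 11 let-7 clusters, 8 on the plus and 3 on the minus strand, started at base 13, downstream of the seed. MIRLET7I (chr12:62603703-62603728, plus strand) had 470 conversion events and its cluster ran to base 38, past the 22 bases of the mature RNA into the rest of the hairpin. MIRLET7C (chr21:16539850-16539861) had 433 events and MIRLET7B (chr22:46113703-46113715) had 216, and their clusters ended at bases 24 and 25. Let-7 clusters had a median of 120 events, and the other 55 clusters on mature microRNAs had a median of 8. MIR98, whose microRNA has the let-7 seed, had 25 events, also from base 13. Copies with the same mature RNA (MIRLET7A1 with 125, MIRLET7A2 with 61 and MIRLET7A3 with 111 events) can share reads, so their counts and their common start are not separate measurements.

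Other microRNAs varied more. All 14 clusters that touched the seed or lay before it were outside let-7, among them MIR25 (22 events, from base 1) and MIR148B (12, from base 2). MIR148A, whose mature RNA targets DNA methyltransferase mRNAs among others, had 156 events from base 14. MIR30A had 73 events from base 14, and MIR21, a microRNA raised in many cancers, had 65 from base 15. MIR26A2 had 57 from base 12 and MIR92A1, from the MIR17HG cluster, 52 from base 11. In 61 hairpins whose sequence was read, with 63 clusters, uridine made up 34.8% of the 936 bases inside clusters and 26.6% of the 4432 other bases. All 63 clusters held a uridine, with a median of 5. Each listed cluster has at least 2 conversion events, and if these are at uridine, a uridine inside follows from the method. The changed base was not examined here. Similar let-7 members also count repeatedly, so these shares do not measure a base preference of FTO. The base before the cluster was a guanosine in 20 of 63 (31.7%, interval 21.6 to 44.0%) and the last base of the cluster in 14 of 63 (22.2%, interval 13.7 to 33.9%), beside 27.5% guanosine in the hairpins outside clusters. Among the 1913 microRNA genes of the gene table, 79 (4.13%) had a cluster, and none of the 89 clusters shared a base with a TRMT10A site. Over all FTO clusters, 721 of 9579 (7.53%) did.

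**Figure D1:**
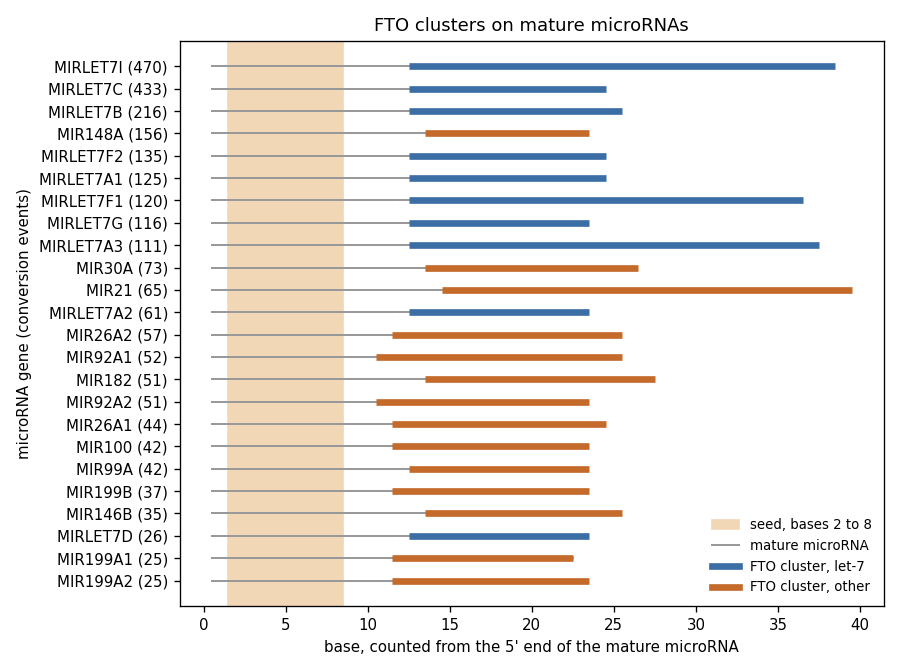
Place of the FTO clusters on the 24 mature microRNAs with the most conversion events. The x axis counts bases from the 5' end of the mature microRNA, the thin line is the mature RNA, the thick line the cluster (blue for let-7) and the shaded band the seed. Conversion events stand in parentheses beside each gene. All clusters shown begin after the seed.

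Ribosomal RNA carried most of the signal. It held 464 clusters (4.84% of 9579, interval 4.43 to 5.29%) but 684410 of 800472 conversion events (85.5%), with a median of 192 events per cluster and a maximum of 31115. Protein-coding genes were the reverse, with 7985 clusters (83.4%, interval 82.6 to 84.1%), 7.99% of events and a median of 2 events. Copies of the ribosomal RNA genes are nearly identical and can share reads, so the ribosomal share of events can count the same read repeatedly. How far it did was not tested. Over all clusters the median was 3 events, and 4293 (44.8%) had exactly 2, the lowest number in the list. Of the 386 clusters with at least 100 events, 270 were in ribosomal RNA, 75 in other small RNAs, 32 in introns of protein-coding genes, 2 in their exons and 7 elsewhere.

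**Figure D2:**
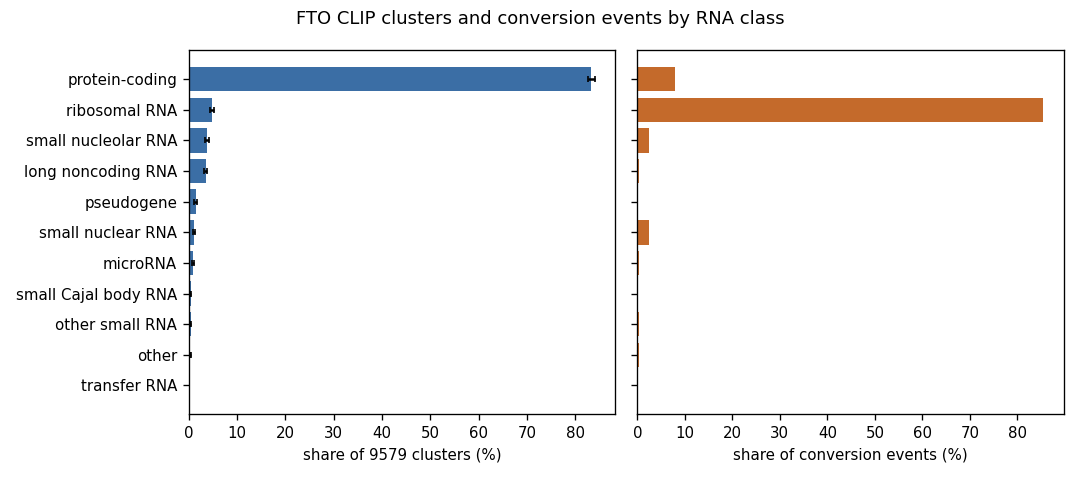
Share of the 9579 clusters (left, with 95% Wilson intervals) and of all conversion events (right) in each RNA class. Protein-coding genes hold 83.4% of clusters, and ribosomal RNA holds 85.5% of events. Near-identical copies of ribosomal RNA genes can share reads, so the 85.5% can count the same read repeatedly.

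Within ribosomal RNA, 28S held 59.6% of the events, 18S 24.3%, the RNA5-8SN genes 6.50%, 5S 0.373% and the spacers of the 45S precursor 0.188%, with a further 9.02% in the array on chromosome 21 outside the gene spans used to place clusters. Of this remainder, 58 clusters with 6.88% of the events are listed under RNA28SN5 and 4 with 2.14% under RNA5-8SN5, so the shares above leave these clusters out. The listed name does not tell which ribosomal RNA they lie in. The highest of the 58 (9835 events, chr21:8253961-8253997) lies before the RNA5-8SN5 cluster at chr21:8256800-8256817, on the plus strand. In the placed copies that side holds 18S, and 28S lies on the other. 28S and the short RNA of the RNA5-8SN genes belong to the large ribosomal subunit, and 18S to the small one. The highest cluster of all lay near the start of 28S, at bases 35 to 47 of RNA28SN1, with 31115 events, and RNA28SN3 had 26481 at bases 33 to 51. A second peak of 28S lay at bases 3627 to 3655 of RNA28SN1 (25140 events) and at bases 3615 to 3643 of RNA28SN2 (25036) and RNA28SN3 (24948). In 18S, the highest clusters were near both ends. Bases 124 to 156 of RNA18SN1 had 8996 events, and the cluster from base 1783 had 12095 in RNA18SN1, 12073 from base 1784 in RNA18SN2 and 11748 from base 1786 in RNA18SN3. Between these ends, RNA18SN1 had 5124 events at bases 1509 to 1556 and 4167 at bases 866 to 895. RNA28SN2 had 9381 events at bases 13 to 29 and no listed cluster from there to its cluster at bases 204 to 262. The peak at bases 33 to 51 of RNA28SN3 thus has no listed counterpart in RNA28SN2. Totals over the 28S copies were 159178 events in 68 clusters for RNA28SN1, 120304 in 64 for RNA28SN2 and 128293 in 48 for RNA28SN3. The copies are nearly identical, can share reads and are not replicates. In the short RNA, the cluster at bases 20 to 38 of RNA5-8SN1 had 8126 events. The row of RNA28S5 in the deposited table states 263 clusters and holds 145 complete ones, so the 28S count is partial and a cluster missing from a copy is not shown to be absent. Clusters listed under that gene also lie outside 28S, so the counts of other parts can be partial too.

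**Figure D3:**
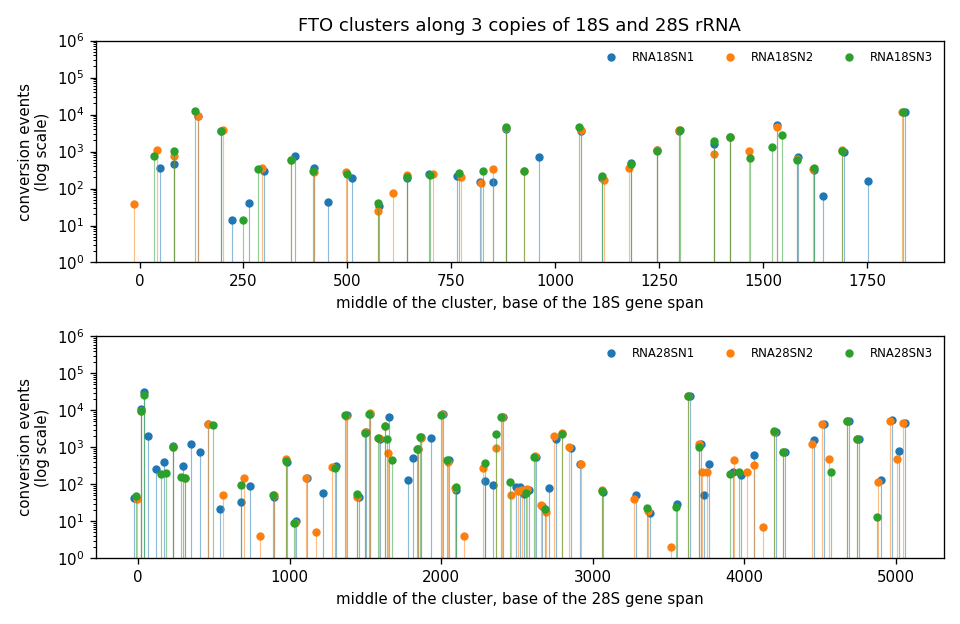
Conversion events (y axis, log scale) of each cluster against the middle of the cluster along 18S (top) and 28S (bottom), with 1 colour for each of 3 gene copies. Peaks at nearly the same bases in all 3 copies include both ends of 18S (up to 12419 events). The highest peak of 28S, near its start (up to 31115), is listed for RNA28SN1 and RNA28SN3. It is not listed for RNA28SN2, and the list of 28S clusters is partial.

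Spliceosomal small nuclear RNAs, which recognise splice sites and form the catalytic core of the spliceosome, held 104 clusters with 19602 events and a median of 52.5. U1, listed as RNU1-1, had 20 clusters over several loci of chromosomes 1 and 14 with up to 1912 events. At bases 96 to 118 of the 164-base RNA, RNU1-1 had 974 events and its near-identical copy RNVU1-7 had 935. U5, which holds the exons in place, had 1690 events at bases 60 to 85 of RNU5D-1, 587 at bases 7 to 48 of RNU5B-1 and 336 at bases 30 to 50 of RNU5A-1. U2, listed as RNU2-1, had 34 clusters over chr17:43233809-43300231, a span far longer than the RNA, with at most 134 events each. U6, an RNA with a known m6A, had 13 clusters under RNU6-1 over several loci, with at most 7 events each. The cluster numbers of U1, U2 and U6 thus count genomic places, which can repeat the same place of the RNA. On the list of spliceosomal small nuclear RNAs, 20 of 41 members (48.8%) had a cluster. Among all 156 small nuclear RNA genes of the gene table, which include RN7SK, 21 (13.5%) had a cluster.

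Small nucleolar RNAs, which guide chemical changes of ribosomal and spliceosomal RNA, held 362 clusters with 19347 events, in 209 of 1199 genes (17.4%). Box C/D RNAs, which guide 2'-O-methylation, had clusters at 145 of 357 members with a median of 11 events, and box H/ACA RNAs, which guide pseudouridine formation, at 64 of 182 with a median of 5. The highest box C/D clusters were at SNORD49A (1898 events in a cluster that starts before the gene's span and ends at its base 11, and 1810 at bases 24 to 82), SNORD3A (1202), which is the U3 RNA needed to cut the 45S precursor, SNORD30 (921) and SNORD2 (873). SNORD3A had its highest cluster at bases 47 to 110 of 217, and 2 lower ones with 80 and 32 events. The highest box H/ACA cluster was at SNORA18 (120 events, bases 15 to 44 of 132). With each RNA split into 3 equal stretches, box H/ACA clusters lay mostly in the 5' stretch (60 of 106, 56.6%), while box C/D clusters were spread over the 5', middle and 3' stretches (79, 96 and 75 of 250). Small Cajal body RNAs, which guide changes of spliceosomal RNAs, had clusters at 16 of 29 members, led by SCARNA10 (203 events).

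Among other structured RNAs, 13 of 15 had a cluster, and RN7SL3 and VTRNA1-3 had none. RMRP, the RNA of RNase MRP, had 706 events at bases 257 to 275 and RPPH1, the RNA of RNase P, 465 at bases 330 to 344, both at the 3' end of the RNA. RN7SK, which holds back the elongation factor P-TEFb, had 7 clusters with up to 106 events. Transfer RNA genes had 6 clusters at 6 of 435 members, led by TRG-GCC3-1 (26 events) and TRG-GCC2-4 (19). Of these 6 clusters, 5 shared a base with a TRMT10A site, beside 7.53% of all FTO clusters. Copies of mitochondrial 16S rRNA in the nuclear genome, named MTRNR2L, had clusters at 7 of 13 members, up to 290 events at MTRNR2L8, and reads of the mitochondrial RNA itself were not separated from theirs.

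Of 20056 protein-coding genes, 3103 (15.5%) had at least 1 cluster and 2844 (14.2%) had 1 in an exon. Most bound genes had few. Exactly 1 cluster was listed for 1599 (51.5%), 2 to 4 for 1105, 5 to 9 for 288 and 10 or more for 111, and these 111 genes held 21.7% of the pairs of a cluster and a coding gene. In genes with at least 5 clusters, the highest one held a median of 26.3% of the gene's events. Between neighbouring exonic clusters of a gene the median genomic distance was 804 bases, introns included, and 19.4% were under 50 bases apart.

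Coding sequence held 59.2% of the protein-coding clusters (4728, interval 58.1 to 60.3%), 3' UTRs 28.3% (2260), introns 8.57% (684) and 5' UTRs 1.24% (99), and the rest lay in noncoding exons or had no region given. The median events were 3 in coding sequence and 2 in 3' and 5' UTRs. Cluster width had a median of 30 bases in coding sequence, 29 in 3' UTRs and 27 in introns, with a range of 10 to 157 over the whole list. Outside ribosomal RNA, where the widest cluster had 143 bases, the widest after that of XIST were at an intron of RYR2 (140 bases), MALAT1 (116), the small nucleolar RNA SNORA64 (113) and the coding sequence of PRRC2C (103).

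Genes with the most clusters encode motor proteins, enzymes, RNA-binding proteins and chaperones, and most of their clusters had few events. MYH9, the heavy chain of nonmuscle myosin IIA, had 40 clusters, 31 in coding sequence and 9 in the 3' UTR, with 14 events at the highest. MYH10, its IIB relative, had 28, with 34 at the highest. SCD, which makes monounsaturated fatty acids, had 37, of which 30 lay in its 3' UTR. SRRM2, a scaffold of nuclear speckles, had 36, of which 32 lay in coding sequence. DDX17, an RNA helicase, had 33, with 13 in introns, and AMOT, a scaffold of Hippo signalling, had 32, of which 16 lay in the 3' UTR. EEF2, the elongation factor that moves the ribosome along mRNA, had 29, with 25 in coding sequence. The chaperones CANX, HSPA5 and HSP90AA1 had 29, 28 and 27. HSPA5 had 26 of its 28 in coding sequence.

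**Figure D4:**
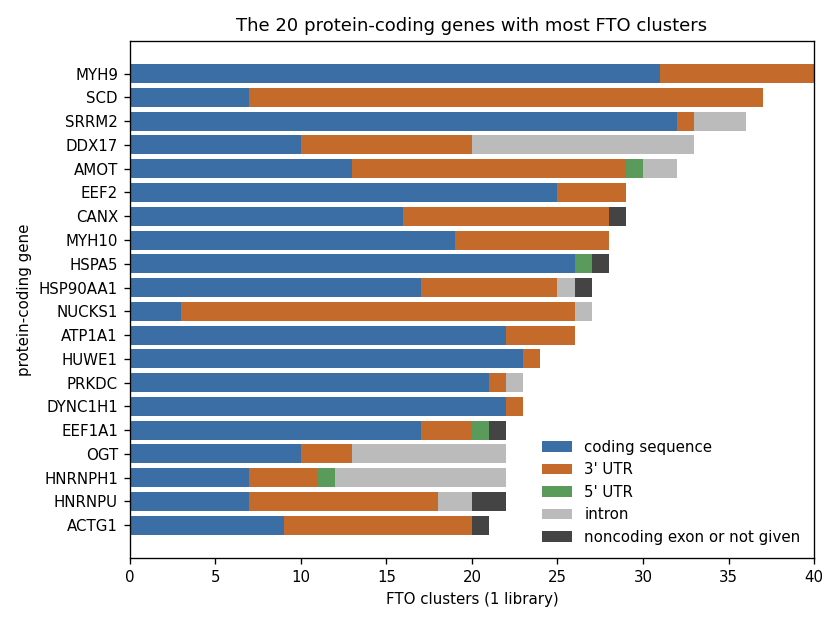
Number of FTO clusters (x axis) in the 20 protein-coding genes with the most, coloured by the region of the transcript. MYH9 leads with 40, mainly in coding sequence, whereas 30 of the 37 clusters of SCD lie in its 3' UTR.

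The highest exonic clusters were in other genes for the most part. GAPDH, a glycolytic enzyme, had 132 events at chr12:6537144-6537165 (plus strand, coding sequence), 22 bases wide, and 60 at chr12:6537929-6537970, with 8 at the next. That first cluster shared a base with a TRMT10A site. EEF2 had 126 at chr19:3981334-3981348 (minus strand, coding sequence), and its next clusters had 29. CANX had 82 at chr5:179729422-179729475 in its 3' UTR, next to 11 at the second. After these came EDARADD (64), SPEN (62), a transcriptional corepressor that binds XIST, H3C2 (54), a histone H3 gene, PTTG1IP (53), POLR2A (49), the largest subunit of RNA polymerase II, PIGT (45) and MYBL2 (44). PTTG1IP had no other cluster. Of 7087 exonic clusters, 258 (3.64%) reached 10 events. Events and width were weakly related over them (Spearman's rho 0.19 across clusters, which are not independent).

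Clusters near the start of the transcript were few. In 33 genes, 35 clusters began within the first 50 bases after a RefSeq start, with a median of 2 events and at most 17, at RACK1, a ribosomal scaffold protein. Where a cluster ended within 30 bases of the start, the sequence from the start is printed (RefSeq, GRCh38.p14) with the cluster in capitals. These starts are annotated ones. Where the caps lie in these cells was not examined, and no cluster reached the first base of a start. HSPA8 encodes the constitutive HSP70, RPS14 a protein of the small ribosomal subunit, and NPM1 a nucleolar chaperone.
HSPA8 (chr11:123062120-123062133, minus strand): ctcATTGAACTCGCCTG
RPS14 (chr5:150449725-150449736, minus strand): ctcTCTTTCCGGTGT
NPM1 (chr5:171387856-171387878, plus strand): ctttcccTGGTGTGATTCCGTCCTGCGCGG
The clusters of HSPA8 and RPS14 had 3 events each, both from base 4, and that of NPM1 had 2, from base 8.

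Gene lists were read against the 15.5% of all protein-coding genes with a cluster, and no list was tested. Among lists of translation and folding, cytosolic ribosomal proteins had clusters at 75 of 91 members (82.4%), led by RPL3 (17 clusters), RACK1 (13), RPS4X (12) and RPL4 (10), and 81.2% of their 309 clusters lay in coding sequence. All 8 CCT chaperonin subunits had a cluster, led by CCT7 (10). HSP70, HSP90 and HSP60 chaperones had them at 14 of 16, without HSPA2 and HSPE1. EIF4G2 (12) and EIF4G1 (9) led the initiation factors, 30 of 56. EEF1A1 (22) and EEF2 led the elongation factors, 5 of 8, without EEF1A2, EEF1E1 and EEFSEC. Aminoacyl-tRNA synthetases had clusters at 17 of 22, led by AARS1 (11), and 90.6% of their clusters lay in coding sequence.

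Among lists of splicing, metabolism and the cytoskeleton, SR splicing factors had clusters at 13 of 16, led by SRRM2, SRSF1 (12) and SRSF5 (11), without SRSF12, SRSF8 and TRA2A, and hnRNP proteins at 26 of 34, led by HNRNPH1 and HNRNPU (22 each). In these 2 lists 16.5% and 15.7% of clusters were intronic, beside 8.57% over all protein-coding clusters. The share was higher still for DEAD- and DEAH-box helicases (23.3%), and it was 12.2% for C2H2 zinc finger genes. Glycolytic enzymes had clusters at 13 of 17, led by PKM (21) and ENO1 (18), without ALDOC, HK1, PFKL and PGAM1. Enzymes and regulators of fatty acid and sterol synthesis had them at 19 of 26, and 47.5% of their clusters were in 3' UTRs, where SCD counts for 30 of 99. Actin cytoskeleton genes had them at 21 of 28, led by MYH9 and, after MYH10, ACTG1 (21). Tubulins had clusters at 5 of 21, led by TUBB (11) and TUBA1B (9).

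Proteasome subunits had clusters at 22 of 39 with at most 3 each, core and linker histones at 38 of 84, led by H2AZ1 (8), oxidative phosphorylation subunits at 41 of 97, led by ATP5F1B (14), and DEAD- and DEAH-box helicases at 24 of 57, led by DDX17. C2H2 zinc finger genes, a family of transcription factors, had clusters at 36 of 527 (6.83%, interval 4.97 to 9.31%), below the background, and at most 5, at ZNF664. The histone genes H4C14 and H4C15 are listed with the same 5 clusters, 18 events in all.

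**Figure D5:**
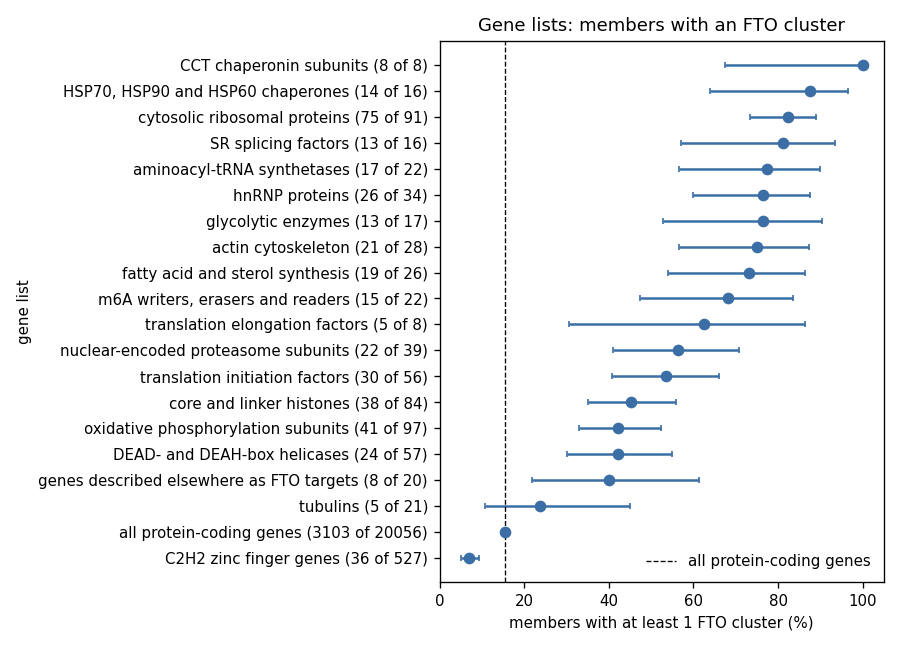
Percent of the members of each protein-coding gene list with at least 1 FTO cluster, with 95% Wilson intervals. The dashed line marks 15.5% of all protein-coding genes. Only the C2H2 zinc finger genes lie below it.

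Genes of m6A metabolism had clusters at 15 of 22 members, led by the readers HNRNPA2B1 (17) and HNRNPC (6) and the eraser ALKBH5 (6 clusters, 4 events at most). The FTO gene had 3 clusters with 6, 3 and 2 events, 2 of them in the 3' UTR, and TRMT10A had none. The cells overexpressed FTO, and reads of the introduced transcript were not separated from those of the cell's own. The writer METTL3 had 1 cluster with 2 events, the writer subunit WTAP 2 clusters, and the reader YTHDF2 1. Of 20 genes described elsewhere as FTO targets, 8 had a cluster, led by PKM and LDHB (11). MYC, a growth-promoting transcription factor, had 4 clusters with at most 5 events, and UHRF1 had 2.

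Long noncoding RNAs held 332 clusters in few genes, 53 of 18330 (0.289%). XIST, which coats and silences an X chromosome, had 145 complete clusters, while its row states 275, so the number is partial. The widest cluster of the whole list, 157 bases, was there, with 49 events, the most of any XIST cluster held. MALAT1, an abundant nuclear RNA with mapped m6A, had 80 clusters with up to 22 events, NEAT1, the scaffold of paraspeckles, 15 with up to 30, and H19 14 with up to 12. ATP6V1G2-DDX39B came next with 4, all of them intronic, whereas those of MALAT1, NEAT1 and H19 were all in exons. Transcripts that host small nucleolar RNAs had clusters of their own at 14 of 32 members, led by GAS5, SNHG16, SNHG29 and ZFAS1 (3 each). On a further list of 9 long noncoding RNAs, which holds MALAT1, NEAT1, H19 and NORAD, 5 had a cluster. Where in the cell these RNAs lie was not examined. On that list CYTOR, KCNQ1OT1, MEG3 and OIP5-AS1 had none, and NORAD had 2.

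Intronic clusters of a few protein-coding genes held far more events than any exon. PDE3A had 4 clusters with 4320 events at the highest (chr12:20551468-20551492, plus strand), ANKRD30BL 16 with 3566, HFM1 9 with 3419 and SLCO5A1 6 with 3312, and USP53 had 1 with 1294. All clusters of these 5 genes were intronic. Introns as a whole held 60.1% of the events of protein-coding clusters in 8.57% of the clusters. Likeness of these places to ribosomal RNA was not tested.

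Set beside the other lists, 721 of 9579 FTO clusters (7.53%, interval 7.02 to 8.07%) overlapped a TRMT10A site of the same strand by at least 1 base, and 704 of 5650 TRMT10A sites (12.5%) with an FTO cluster. By class this was 9.60% of clusters in coding sequence, 3.72% in 3' UTRs and 0.276% in small nucleolar RNAs. HSP90AA1 had 6 shared clusters of 27, SRRM2 7 of 36 and MYH9 2 of 40. Blocks of differential m6A peaks held 627 FTO clusters (6.55%), and 356 of 2023 peaks (17.6%) held a cluster. MALAT1 had 20 of 80 clusters in such peaks, XIST 20 of 145, SRRM2 9 of 36 and MYH9 8 of 40. Only peaks that differ between siTRMT10A and siCtrl cells are in that list, so a cluster outside them is not shown to lack m6A.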

How the data were processed

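The authors deposited FTO clusters as counts of conversion events per cluster, listed per transcript with 7 columns each, per the file headers. The caller, aligner and read depth are not given in the sources used here. Per the submitters' processing notes the build is hg38, and DESeq2 is named without version or role. The deposited TRMT10A list gives a score (peak height) for each pooled site, and the deposited m6A table a log2 fold change per differential peak, per the file headers. Of these only positions were used.

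From the files, 19163 entries in 7628 rows were reduced to distinct coordinates. Symbols and RNA classes came from a gene table of GRCh38.p14 (18939 entries matched). Small RNAs came before host genes where they held at least 0.5 of the cluster, and the 45S array of chromosome 21 was counted as ribosomal RNA. Of 2 rows that end at column 1024, those of XIST and RNA28S5, the remaining clusters were not analysed here. Width is end minus start plus 1. Overlap needed 1 shared base on the same strand. Shares carry 95% Wilson intervals. Parsing was tested on simulated data, where 200 of 200 genes were recovered. Tables were made with pandas 2.3.3 and numpy 2.4.6 in Python 3.11.15, figures with matplotlib 3.10.9, and the rank correlation with scipy 1.17.1.

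The members and the 29 gene lists were chosen with earlier results of these data known. Of the lists, 2 were edited after the values had been seen. MTRNR2L members were taken as pseudogenes, because none matched as coding genes, and host genes were dropped from the microRNA list. Base windows on microRNAs, the division of small RNAs into 3 stretches, the placing of clusters on copies of ribosomal RNA and the transcript starts were also chosen after seeing the data. Genes were named by rule: ribosomal RNA, the 10 genes with the highest cluster outside it, the 10 protein-coding genes with most clusters and the 10 with the highest exonic cluster, the 5 with the widest cluster, the 5 long noncoding RNA genes with most clusters, up to 4 members per list, members without a cluster where at most 5 lack one, and FTO, TRMT10A and ALKBH5. Other small RNAs and microRNAs, METTL3, WTAP and YTHDF2 were named after their values were seen. The aminoacyl-tRNA synthetase genes without a cluster are not reported here by name.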

Additional observations from a re-analysis of the deposited data

How the results depend on the processing

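Counts depended mainly on the lowest number of events. With at least 3 conversion events, 5286 clusters in 2218 genes were left of 9579 in 3589, and with at least 5, 2371 in 1038. The share in protein-coding genes was 74.3% and 54.0%, against 83.4%, and 87.6% without ribosomal RNA. The ribosomal RNA share of events was 89.9% without intronic clusters, against 85.5%. At these 2 minimums the coding sequence share was 60.3% and 60.1%, against 59.2%, and the 3' UTR share 27.0% and 22.6%, against 28.3%. The median width was 31 in both, against 30. Where clusters and sites could lie 100 bases apart, 20.1% of clusters had a TRMT10A site, against 7.53%. Merging overlapping clusters changed neither the number of clusters nor the ribosomal RNA share, since no clusters overlapped on a strand. Over the 19 coding gene lists and all protein-coding genes, shares stayed within the Wilson interval for 12 of 20 with at least 3 events, 2 with at least 5, and 19 with exons only. Clusters per kilobase of transcript were not run, because the gene table gives gene spans and not transcript lengths. No paired analysis was possible because the FTO list comes from 1 library.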
